A study of Arabidopsis thaliana with 9 samples.

Results

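The 5 genes described here are auxin response genes measured in leaves of Arabidopsis thaliana: IAA29 (AT4G32280), GH3.3 (AT2G23170), GH3.5 (AT4G27260, listed on the array as WES1), HAT2 (AT5G47370) and the SAUR-type gene AT3G53250, which RefSeq also names SAUR57. They are 5 of 13350 genes that the platform annotation pairs with a probe set of their own on the Affymetrix ATH1 array, and each is read by 1 probe set. They were chosen by name with measured values in view: IAA29, GH3.5 and HAT2 had been seen to be higher in calpain null than in wild-type leaves, AT3G53250 to be higher in calpain overexpressing than in wild-type leaves, and GH3.3 belonged to the same list of auxin response genes. The values of the members in those comparisons are therefore a description. Counts of members past the call threshold are printed only beside the share of all probe sets past it, and support nothing.

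Leaves of 3 Col-0 genotypes were compared, with 3 arrays for each. The calpain overexpressing line carried a T-DNA insertion that knocks out DEK1 (At1g55350) and a transgene labelled ADEK1 calpain. The calpain null line carried the same knock-out and a transgene labelled ADEK1 calpain null, and the control was wild-type Col-0. DEK1 is a plant membrane protein with a cysteine protease domain of the calpain type and is needed for the epidermis to form. Plants were at growth stage 1.14, grown at 21 °C in short days with 6 plants to a pot, after plating on medium with 0.6% sucrose, 3 days in the cold and transfer of the seedlings to soil after 7 days. What null stands for, which promoter drives the transgene and how many independent lines were used are not given in the sources used here. Replicates are numbered, with no statement that they are separate plants. The p-values thus reflect only how much these samples vary, and that variation may be technical.

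Auxin acts by bringing Aux/IAA repressors together with TIR1-type F-box proteins, which marks the repressors for degradation and frees auxin response factors to act on their target genes. Early targets include the Aux/IAA genes themselves, the GH3 genes, the SAUR genes and several homeodomain-leucine zipper genes, so that the pathway raises its own repressors and its own hormone-inactivating enzymes. In leaves and stems auxin response is best known for its part in cell expansion, vein formation and the growth response to shade.

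All values are MAS5 signals, a linear measure of hybridisation per probe set that the authors scaled to a common mean, so that a level depends on the other probe sets of its array. Median signals per array ran from 33.1 to 35.7. The arrays numbered 1 of both transgenic lines stood apart: on the first principal component, which held 40% of the variance, they scored -9.37 (calpain overexpressing) and -9.62 (calpain null), while the other arrays of those lines scored 14.7 to 34.5 and wild-type arrays -33.2 to -19.2. Results that rest on these arrays are given with and without the arrays numbered 1. On this component they were the transgenic arrays nearest wild type, so leaving them out favours larger differences from wild type. They were singled out on these same data, so values and calls without the arrays numbered 1 are a description. Of 8 leaf markers, the platform annotation paired 3 with a single-gene probe set. Their summed signal ranged from 6908 to 7556 in calpain overexpressing, 7043 to 8599 in calpain null and 6812 to 8048 in wild-type leaves. The sum was mostly RCA and PRK. The third, the light-harvesting gene LHCB4.3, had 108 to 161 in calpain overexpressing, 57.7 to 74.9 in calpain null and 46.7 to 94.1 in wild-type leaves. Its log2 fold changes were 0.88 for calpain overexpressing minus wild type (limma adjusted p = 0.0753) and 0.93 for calpain overexpressing minus calpain null (limma adjusted p = 0.107). It was higher without overlap in both, as were 12.1% and 6.26% of all probe sets tested. Its calpain overexpressing arrays were thus high as those of AT3G53250 were, and its part in the results was not tested. Of 8 root markers, PYK10 alone had a single-gene probe set. It had 9.96 to 112 in calpain overexpressing, 16 to 63.9 in calpain null and 15.2 to 43.3 in wild-type leaves. The shoot meristem marker CLV3, 1 of 7 listed, was at or below 3.98 on every array. No gene of the flower, vascular and epidermis lists had a single-gene probe set. In bulk leaf RNA, fewer cells of a type and less RNA per cell cannot be told apart. The annotation paired no probe set with DEK1, so its transcript is not analysed here.

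IAA29 encodes an Aux/IAA protein, a repressor of auxin response factors whose gene is induced by auxin and by shade. Its signals were 18.3, 68.3 and 60.1 on the calpain overexpressing arrays numbered 1, 2 and 3, 17.9, 138 and 153 on the calpain null arrays, and 9.21, 4.05 and 8.77 on the wild-type arrays. Every array of either transgenic line lay above every wild-type array, and the array numbered 1 was the lowest of its line in both. The group means were 48.9 ± 26.8 in calpain overexpressing, 103 ± 74.0 in calpain null and 7.34 ± 2.86 in wild-type leaves (SD, n = 3 each). The mean ratio to wild type was 6.66 in the calpain overexpressing and 14.0 in the calpain null line, and the log2 fold changes, on the log2(signal + 3.63) scale, were 2.12 (SE 0.66) and 2.87 (SE 0.66). Wild-type signals lay below 17.6, the level that a probe set had to reach on at least 3 arrays to be tested, where a fold change depends on the added constant. IAA29 was tested only because the transgenic arrays reached that level, all 6 of them.

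**Figure D1:**
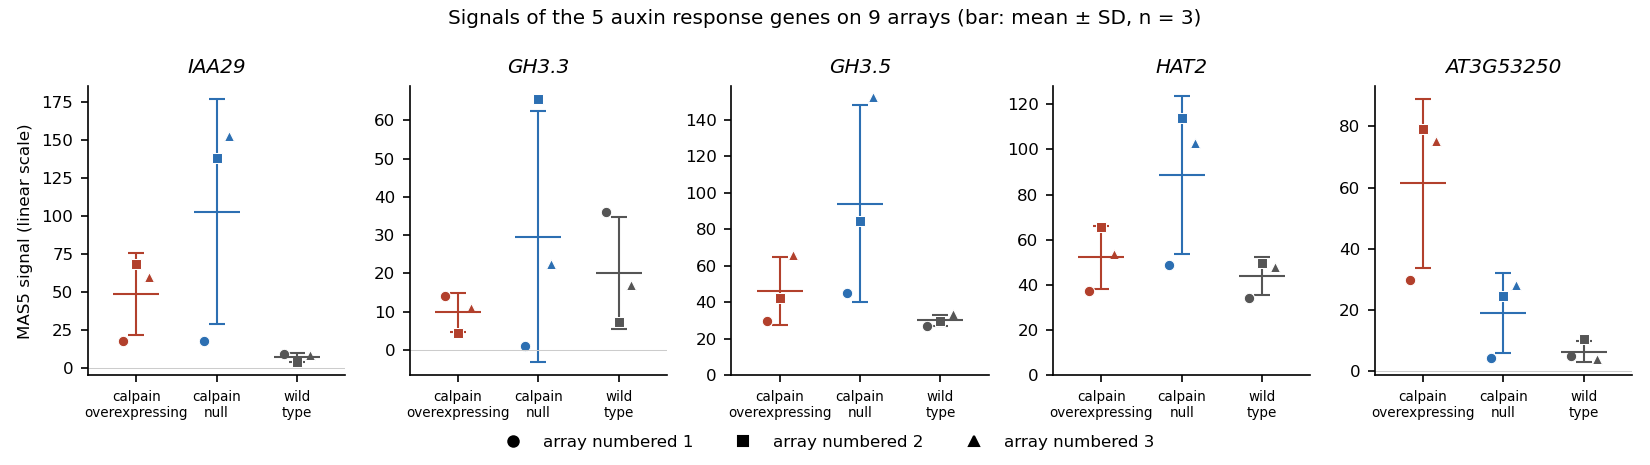
MAS5 signals on a linear scale for the 5 genes, 1 panel a gene, with calpain overexpressing, calpain null and wild-type leaves from left to right, the array number as the symbol, and the mean ± SD of 3 arrays as bars. IAA29, GH3.5 and HAT2 have their highest mean in calpain null leaves (103, 94.2 and 88.6), AT3G53250 in calpain overexpressing leaves (61.4), and the groups of GH3.3 overlap.

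GH3.5 and GH3.3 encode enzymes that join indole-3-acetic acid to amino acids and so take free auxin out of the active pool. GH3.5 had 29.6, 42.7 and 66.1 on the calpain overexpressing arrays numbered 1, 2 and 3, 45.4, 84.9 and 152 on the calpain null arrays, and 27.3, 29.6 and 33.4 on the wild-type arrays. All calpain null arrays lay above all wild-type arrays, while the calpain overexpressing range overlapped the wild-type range. Means were 46.1 ± 18.5 in calpain overexpressing, 94.2 ± 54.1 in calpain null and 30.1 ± 3.1 in wild-type leaves (SD, n = 3 each). The log2 fold change against wild type was 0.50 (SE 0.36) in the calpain overexpressing line and 1.38 (SE 0.36) in the calpain null line. The calpain overexpressing value was 0.22 without that line's array numbered 3 and 0.76 without its array numbered 1.

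GH3.3 was the member with no clear order of groups. It had 14.2, 4.36 and 11 in calpain overexpressing, 1.06, 65.5 and 22.4 in calpain null and 36, 7.28 and 16.9 in wild-type leaves, on the arrays numbered 1, 2 and 3. Within calpain null leaves alone the lowest and highest array thus spanned the whole range of the other groups, and only 3 of the 9 arrays reached the level of 17.6. The log2 fold changes against wild type were -0.70 (SE 0.79) for calpain overexpressing and -0.02 (SE 0.79) for calpain null leaves. The calpain null value took a positive sign without the calpain null array numbered 1 (1.03), with a larger added constant (0.14) and with array weights (0.59).

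HAT2 encodes a homeodomain-leucine zipper transcription factor of class II whose gene is induced by auxin. Its signals were 37.6, 65.5 and 53.7 on the calpain overexpressing arrays, 48.7, 114 and 103 on the calpain null arrays and 34.2, 49.7 and 48.1 on the wild-type arrays numbered 1, 2 and 3. The calpain null arrays numbered 2 and 3 lay above all others, and the calpain null array numbered 1 lay inside the wild-type range. Means were 52.2 ± 14.0 in calpain overexpressing, 88.6 ± 35.0 in calpain null and 44.0 ± 8.48 in wild-type leaves (SD, n = 3 each), so that the calpain overexpressing and wild-type means differed by less than the spread of their arrays. The log2 fold change was 0.21 (SE 0.29) against wild type in calpain overexpressing leaves and 0.88 (SE 0.29) in calpain null leaves.

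SAUR genes encode small, short-lived proteins, several of which promote cell expansion by inhibiting phosphatases that switch off plasma membrane proton pumps. AT3G53250 had 29.7, 79.2 and 75.2 on the calpain overexpressing arrays, 4.22, 24.6 and 28.3 on the calpain null arrays, and 4.83, 10.3 and 3.94 on the wild-type arrays numbered 1, 2 and 3. Every calpain overexpressing array lay above every array of the other groups, the closest pair being 29.7 and 28.3. In calpain null leaves the arrays numbered 2 and 3 lay above wild type and the array numbered 1 did not. Means were 61.4 ± 27.5 in calpain overexpressing, 19.0 ± 13 in calpain null and 6.37 ± 3.47 in wild-type leaves (SD, n = 3 each). The log2 fold change against wild type was 2.64 (SE 0.52) for the calpain overexpressing and 0.99 (SE 0.52) for the calpain null line. Only 5 arrays reached 17.6, none of them wild type, so these fold changes depend on the added constant. With a constant of 16 they were 1.73 and 0.58, and with a constant of 1 they were 3.06 and 1.19.

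**Figure D2:**
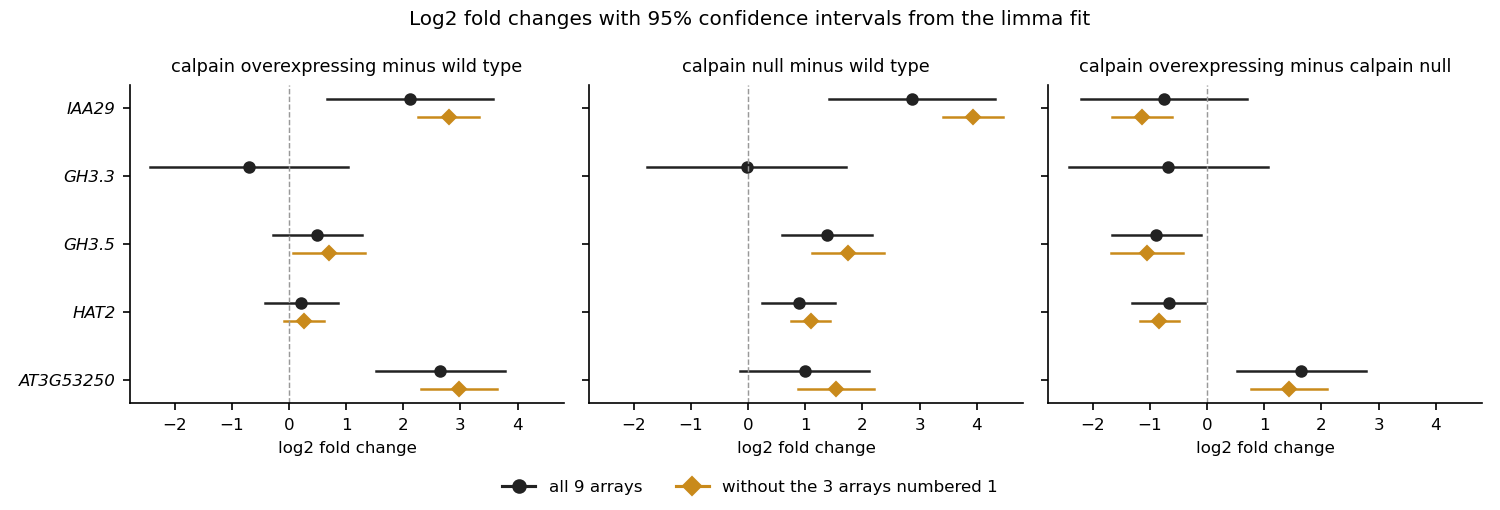
Log2 fold changes (x axis) of the 5 genes in the 3 comparisons, with bars for 95% confidence intervals, from all 9 arrays (black circles) and without the 3 arrays numbered 1 (ochre diamonds). In calpain overexpressing minus calpain null, AT3G53250 lies right of 0 at 1.65 and the other 4 genes left of 0, and GH3.3 has no value without the arrays numbered 1 because it then missed the level for testing.

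For calpain overexpressing minus wild type, 1 of the 5 genes, AT3G53250, was called at an adjusted p under 0.05, where 1.61% of the 14151 probe sets tested were called. IAA29 and AT3G53250 were higher on all 3 calpain overexpressing arrays than on any wild-type array, as were 12.1% of all probe sets tested. For calpain null minus wild type none of the 5 was called by limma, where 0.0565% of all probe sets were. At an unadjusted p under 0.05 there were 3 of the 5 and 17.4% of all probe sets, and IAA29 and GH3.5 were higher without overlap, as were 13% of all. Nothing is read from these counts, since the members were chosen on both comparisons and the comparisons share the wild-type arrays. AT3G53250 and IAA29 also passed the filter only through the transgenic arrays on which they are high. Without the arrays numbered 1, the calls were IAA29 and AT3G53250 for calpain overexpressing minus wild type, where 13.8% of 13825 probe sets were called, and IAA29, GH3.5, HAT2 and AT3G53250 for calpain null minus wild type, where 8.03% were called. The call of AT3G53250 in the first comparison was lost on leaving out the calpain overexpressing array numbered 2 (log2 fold change 2.41) or 3 (2.45) or the wild-type array numbered 1 (2.55), 2 (2.91) or 3 (2.47).

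The direct comparison of calpain overexpressing with calpain null leaves asks whether the levels of these genes differ between the lines that share the knock-out. What null stands for is not given, so how their transgenes differ is not known. It is not independent of the choice of members: it uses the same transgenic arrays whose high values chose IAA29, GH3.5 and HAT2 in one line and AT3G53250 in the other, so opposite signs are favoured by that choice. Its values are therefore a description too. With all 9 arrays none of the 5 was called by limma, against 0.523% of the 14151 probe sets tested, and 3 of them had an unadjusted p under 0.05, against 10.6% of all. AT3G53250 had 61.4 in calpain overexpressing and 19.0 in calpain null leaves, a log2 fold change of 1.65 (SE 0.52, 95% confidence interval 0.52 to 2.78), and was higher on every calpain overexpressing array without overlap, as were 6.26% of all probe sets tested. GH3.5 had 46.1 in calpain overexpressing and 94.2 in calpain null leaves, a log2 fold change of -0.88 (SE 0.36, interval -1.67 to -0.10). HAT2 averaged 52.2 in calpain overexpressing and 88.6 in calpain null leaves, with a log2 fold change of -0.67 (interval -1.31 to -0.03). IAA29 had 48.9 in calpain overexpressing and 103 in calpain null leaves, with an interval from -2.20 to 0.70 around -0.75, and the interval of GH3.3 ran from -2.41 to 1.06 around -0.67.

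The ranges of the 2 transgenic lines overlapped for IAA29, GH3.5, HAT2 and GH3.3. Single arrays moved these differences: that of IAA29 was -0.21 when array 1 of the calpain overexpressing line was left out. When array 1 of the calpain null line was left out, the differences were -1.68 for IAA29, -1.04 for HAT2 and 1.00 for AT3G53250. Without the arrays numbered 1, which leaves 2 arrays per group, the log2 fold changes were -1.14 for IAA29, -0.83 for HAT2, -1.05 for GH3.5 and 1.43 for AT3G53250. IAA29, HAT2 and AT3G53250 were then past the threshold, as were 2.54% of 13825 probe sets. Leaving out any single array gave no call of a member in this comparison.

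Within the transgenic lines, the arrays numbered 1 had lower levels of most members than the arrays numbered 2 and 3. The mean of the arrays numbered 2 and 3 was 3.51 times the array numbered 1 for IAA29, 1.84 times for GH3.5, 1.59 times for HAT2 and 2.6 times for AT3G53250 in calpain overexpressing leaves. The same ratios in calpain null leaves were 8.13 for IAA29, 2.61 for GH3.5, 2.23 for HAT2 and 6.26 for AT3G53250. In wild-type leaves they were 0.70 for IAA29, 1.15 for GH3.5, 1.43 for HAT2 and 1.48 for AT3G53250. The array numbered 1 was the lowest of its line in both transgenic lines for 4 of the 5 genes, GH3.3 being the exception, and for 19.8% of all probe sets tested. In wild-type leaves it was the lowest for 2 of the 5 genes and 35.1% of all probe sets. Taken singly, the calpain overexpressing line had 4 of the 5 genes and 39.5% of all probe sets lowest on that array. The calpain null line had all 5 genes and 36.7% of all probe sets. The labels give no batch. The array's control for 25S rRNA read 160 on the calpain overexpressing and 167 on the calpain null array numbered 1, and 208 to 384 on the other 7 arrays, and its part in the members' levels was not tested.

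**Figure D3:**
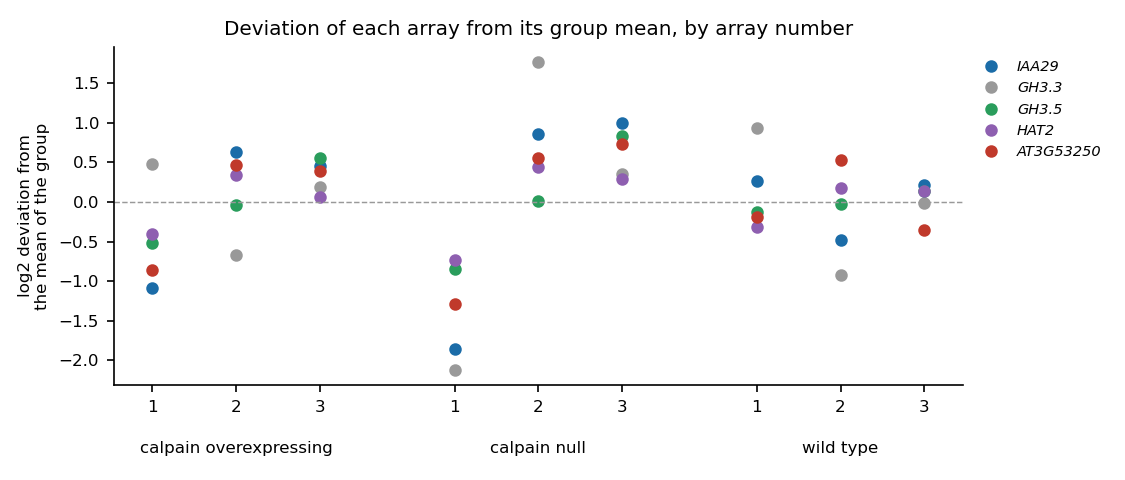
Deviation of each array from the mean of its group, on the log2(signal + 3.63) scale (y axis), for the 5 genes, by group and array number (x axis). In both transgenic lines IAA29, GH3.5, HAT2 and AT3G53250 lie below 0 on the array numbered 1, down to -1.86 for IAA29 in calpain null leaves. GH3.3 lies at 0.48 on the calpain overexpressing and at -2.12 on the calpain null array numbered 1. On the wild-type array numbered 1, IAA29 lies above 0 at 0.26. GH3.5, HAT2 and AT3G53250 lie below 0 there, down to -0.31 for HAT2.

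The members varied together across arrays to different degrees. Over the 9 arrays, Pearson's r of log2 signals was 0.88 between IAA29 and GH3.5, 0.87 between GH3.5 and HAT2 and 0.84 between IAA29 and HAT2. AT3G53250 had r = 0.68 with IAA29, 0.41 with GH3.5 and 0.39 with HAT2. After the group means were subtracted, its r with these genes was 0.85, 0.81 and 0.91, and GH3.3 had between 0.41 and 0.65 with the other 4. These describe 9 arrays that share the 3 groups and the low arrays numbered 1, and they carry no test.

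The transcripts most like each member were picked as the highest r among 7710 single-gene probe sets tested, so a high r is given by the choice. Among them, the closest to AT3G53250 over the 9 arrays were AT1G44830, an ERF-type transcription factor gene (r = 0.99), AT3G18215 (0.98), IQD22, which encodes a calmodulin-binding protein of the IQD family (0.98), and AT5G01210 (0.98). AT1G44830 averaged 175 ± 68.5 in calpain overexpressing, 63.0 ± 34.2 in calpain null and 25 ± 13 in wild-type leaves, the same order as AT3G53250. AT5G01210 averaged 228 ± 117 in calpain overexpressing, 72.4 ± 40.1 in calpain null and 31.8 ± 10.5 in wild-type leaves (SD, n = 3 each).

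Closest to IAA29 were AT1G55680 (r = 0.99), AT1G53030 (0.98), the ubiquitin-conjugating enzyme gene UBC28 (0.98) and AT5G44250 (0.97). UBC28 averaged 1108 ± 182 in calpain overexpressing, 1238 ± 274 in calpain null and 874 ± 50.2 in wild-type leaves, the same order of means as IAA29. Closest to GH3.5 were AT5G59950 (0.97), AT4G34215 (0.97), AT1G63880 (0.95) and DI19 (0.95), and closest to HAT2 were AT3G53670 (0.96), AT3G28940 (0.95), AT1G33590 (0.95) and AT4G36790 (0.95). AT3G28940 averaged 411 ± 133 in calpain overexpressing, 578 ± 164 in calpain null and 303 ± 38.8 in wild-type leaves. For GH3.3 the closest were AT3G49100, AT5G14240, AT3G23660 and AT1G53760, at r from 0.91 to 0.93. By the deviations from the group means, the closest were AT1G54120 and UBC28 for IAA29, AT1G14910 and AT3G23660 for GH3.3, AT1G21520 and AT4G30390 for GH3.5, AT4G36550 and AT5G59140 for HAT2, and AT5G57760 and AT1G27000 for AT3G53250, at r from 0.95 to 0.99.

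The rest of the pathway could be followed only in part, since 21 of 211 other genes listed for auxin synthesis, turnover, transport, perception and response had a single-gene probe set and 8 of these reached the level for testing. Receptor and auxin response factor genes had none. The platform annotation lists no gene for 8794 of the 22810 probe sets, so a gene without a listed probe set may still be on the array. Of the 8, 1 rose and none fell in calpain overexpressing against wild-type leaves, where 1.61% of all probe sets were called. None was called by limma in calpain null against wild-type leaves or in calpain overexpressing against calpain null leaves. At an unadjusted p under 0.05 there were 2 of the 8 in the first comparison, 1 in the second and 1 in the last, against 18.1%, 17.4% and 10.6% of all probe sets. The median log2 fold change of the 8 was 0.36, 0.27 and 0.17 in these comparisons, and that of all probe sets tested 0.01, 0.01 and -0.01. That of the 5 members was 0.50, 0.99 and -0.67. Nothing is read from these medians, since the members and gene lists were chosen with earlier results of these data known. WAG2 and AT2G18010, described below, also passed the filter only through transgenic arrays on which they were high.

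The gene that rose was ARL, or ARGOS-LIKE, which promotes cell expansion and is known for its induction by brassinosteroid; it had been placed on the list of auxin-induced genes beside its relative, the auxin-induced ARGOS, and no other gene of the 8 was called. It had 148, 424 and 469 on the calpain overexpressing arrays against 25.9, 41.0 and 27.2 on the wild-type arrays numbered 1, 2 and 3 (log2 fold change 3.18, SE 0.69, limma adjusted p = 0.0466). Its calpain null arrays had 27.2, 280 and 235, with the array numbered 1 inside the wild-type range, and a log2 fold change of 1.89 against wild type (limma adjusted p = 0.199). Without the arrays numbered 1, which leaves 2 arrays per group, its log2 fold change against wild type was 3.6 in the calpain overexpressing line (limma adjusted p = 2e-05). In the calpain null line it was 2.81 (limma adjusted p = 0.00016). In that fit 13.8% and 8.03% of 13825 probe sets were called in these comparisons. The gene lists were chosen with earlier results of these data known, so the values of ARL are a description too. The call of ARL was lost on leaving out the calpain overexpressing array numbered 2 (limma adjusted p = 0.197) or 3 (0.179), the calpain null array numbered 3 (0.0544), or the wild-type array numbered 1 (0.162), 2 (0.0998) or 3 (0.16).

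**Figure D4:**
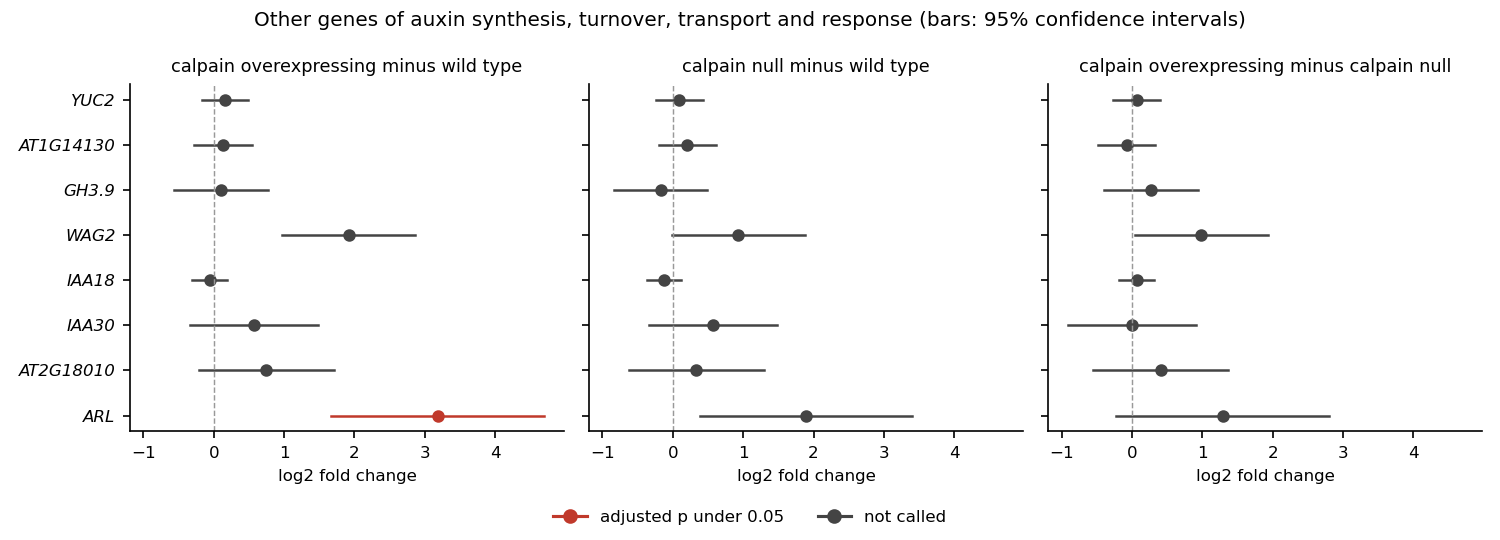
Log2 fold changes (x axis) with 95% confidence intervals for the 8 other auxin genes tested, in the 3 comparisons, with called genes in red. ARL, at 3.18 in calpain overexpressing minus wild type, is the only called value, and WAG2 is the next largest at 1.92.

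Among transport genes, WAG2, which encodes a protein kinase that directs PIN auxin carriers, had 16.5, 47.9 and 56.5 on the calpain overexpressing arrays, 7.70, 20.8 and 25.3 on the calpain null arrays and 8.34, 7.16 and 5.34 on the wild-type arrays numbered 1, 2 and 3. All calpain overexpressing arrays lay above all wild-type arrays, and its order of groups was that of AT3G53250. The log2 fold change was 1.92 (SE 0.43, limma adjusted p = 0.0514) for calpain overexpressing minus wild type, 0.93 (limma adjusted p = 0.293) for calpain null minus wild type and 0.99 (limma adjusted p = 0.437) for calpain overexpressing minus calpain null. Without the arrays numbered 1, its log2 fold change against wild type was 2.50 in the calpain overexpressing and 1.43 in the calpain null line. Both values were then called, as were 13.8% and 8.03% of 13825 probe sets. WAG2 was tested only because 4 arrays reached the level of 17.6, all of them transgenic arrays on which it was high. Its values are therefore a description. Wild-type signals lay below that level, and the value of 1.92 was 1.22 with an added constant of 16.

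The auxin synthesis gene YUC2, which encodes a flavin monooxygenase, had 34.7 ± 3.43 in calpain overexpressing, 32.8 ± 0.912 in calpain null and 30.6 ± 1.59 in wild-type leaves (SD, n = 3 each), with log2 fold changes of 0.16 and 0.09 against wild type. The auxin oxidase gene AT1G14130, known as DAO1, had 0.13 and 0.21, and GH3.9 had 0.10 and -0.17. The Aux/IAA gene IAA18, at 162 ± 6.90, 155 ± 12.2 and 169 ± 13.5 in calpain overexpressing, calpain null and wild-type leaves, had -0.06 and -0.13, and IAA30 had 0.57 in both lines. The SAUR gene AT2G18010, with 6.37, 20.6 and 34.2 on the calpain overexpressing, 11.9, 7.86 and 18.3 on the calpain null and 7.15, 9.97 and 9.63 on the wild-type arrays, had log2 fold changes of 0.75 and 0.34 against wild type. Without the calpain overexpressing array numbered 1, its first value was 1.28 and was called, where 1775 probe sets were called against 228 with all arrays. Without all arrays numbered 1 it was 1.17 and was not called. AT2G18010 reached the level of 17.6 on only 3 arrays, all of them transgenic arrays on which it was high, so its values are a description. With all arrays, none of these 6 genes was called in either line by limma, their adjusted p running from 0.386 to 0.884 for calpain overexpressing and from 0.501 to 0.804 for calpain null leaves. YUC4, YUC6, DAO2 (AT1G14120), GH3.1, GH3.17, UGT84B1, IAA20, IAA31, IAA33, IAA34, LBD16, LBD29 and the SAUR gene AT1G43040 did not reach the level for testing on 3 arrays. Of the 12 genes on the shade list, FHL alone had a single-gene probe set, and it did not reach that level either.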

How the data were processed

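RNA from leaves of 3 genotypes was measured on 9 ATH1 arrays. The authors deposited intensity values, 1 linear signal per probe set, and the submitters' processing notes name MAS5 and GCOS; the genome build is not given in the sources used here. Groups and replicate numbers came from the labels. Gene names came from the platform annotation, which gives a single gene for 13513 of 22810 probe sets, and 13508 of these matched a RefSeq locus of TAIR10.1. Signals were transformed as log2(signal + 3.63), the constant being the 20th percentile of the table. Probe sets were tested if 3 or more arrays reached 17.6 (the 40th percentile), with 64 control probe sets left out. limma 3.58.1 in R 4.3.3 was fitted to all 9 arrays with an intensity trend, and p-values were two-sided and adjusted by Benjamini-Hochberg over all 14151 probe sets. The fit was tested on simulated data. Figures used matplotlib 3.10.9. Alternatives covered arrays left out, a block for the replicate number, array weights, fits restricted to 2 groups, and the added constant, filter, scaling and trend. The number of arrays limits the precision.

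The members and gene lists were chosen with earlier results of these data known. Besides the members, the text names every other auxin or shade gene called and the 2 with the smallest p of each list in each comparison, and, for each member, the 4 single-gene probe sets with the highest Pearson's r over the 9 arrays and the 2 with the highest r of deviations from the group means. Untested genes and markers are named only to account for the lists. No sequence is shown.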

Additional observations from a re-analysis of the deposited data

How the results depend on the processing

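Leaving out 1 array at a time gave 24 to 1775 calls for calpain overexpressing minus wild type (228 with all arrays), 1 to 490 for calpain null minus wild type (8) and 22 to 153 for calpain overexpressing minus calpain null (74). In the same order, the calls were 1914, 1110 and 351 without the arrays numbered 1, 2663, 619 and 238 with array weights, and 770, 461 and 187 with the replicate number as a block. With no filter on low signals they were 76 and 39 in the first and last comparison, with no intensity trend 102 in the first, with the stricter filter 20 in the second, and in fits of only the 2 groups 272 and 24 in the second and last. Of the members, 0 to 2, 0 to 3 and 0 were called on leaving out 1 array (1, 0 and 0 with all). With the replicate block they numbered 2, 3 and 1, with array weights 2 and 3 in the first and second, without the arrays numbered 1 they were 2, 4 and 3, and in fits of only 2 groups 2 and 1 in the first and second; none was called in the first with no filter, the stricter filter or no trend. Of the 8 other auxin genes, 0 to 3 and 0 to 1 were called in the first and second on leaving out 1 array (1 and 0 with all), 2 and 1 under either the replicate block or array weights, 2 and 2 without the arrays numbered 1, and none in the first with no filter, quantile normalization or no trend.

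Signs changed only for values near 0 that were not called. For calpain null minus wild type these were GH3.3 (0.14 with a constant of 16, 0.59 with array weights, -0.49 to 1.03 on leaving out 1 array) and GH3.9 (-0.42 to 0.12 on leaving out 1 array). For calpain overexpressing minus wild type they were GH3.9 (-0.14 with array weights, -0.24 without the arrays numbered 1, -0.15 to 0.40 on leaving out 1 array) and IAA18 (-0.11 to 0.00018). For calpain overexpressing minus calpain null they were YUC2 (-0.0042 to 0.12), AT1G14130 (0.028 with array weights, 0.089 without the arrays numbered 1, -0.15 to 0.075 on leaving out 1 array) and IAA30 (-0.0032 with a constant of 16, -0.21 to 0.16 on leaving out 1 array). The cause of these changes was not tested. Members that missed the level for testing under a setting have no value there.

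Whether the same replicate number pairs the samples is not known: the labels name no shared batch, and the main fit had no block. Deviations of same-numbered arrays correlated at -0.13 to 0.37, not above 0.1 in every pair. The calpain overexpressing array numbered 1 had 0.37 with calpain null (-0.26 to -0.19 with other numbers). With wild type it had 0.32 (-0.21 to -0.18 with other numbers). Same-numbered calpain null and wild-type arrays had -0.13 to -0.007. With the replicate block the member called in calpain overexpressing minus calpain null was AT3G53250.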
